A study of Mus musculus with 9 samples.

Results

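The comparison of 60 with 30 min of parathyroid hormone (PTH) rested on 6 of the 9 arrays of a time course in OB-6 cells, a mouse osteoblastic cell line. Total RNA taken at 0, 30 and 60 min of PTH was measured on 1-colour short-oligonucleotide arrays, with 3 arrays per time named replicates a, b and c. The cultures at 30 and 60 min differed only in the time with the hormone, as far as the labels go, and the 0 min arrays are the basal state. The dose of PTH, the culture conditions and any agent shared by all cultures are not stated in the labels. Time-matched cultures without the hormone were not analysed here, so time in the dish and time with the hormone cannot be told apart. All 12422 probe sets that are not controls were taken as members, out of 12488 in the deposited table, and 7884 of them were bright enough to test. The question was which transcripts turned over and which kept rising between the 2 treated times.

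PTH acts on osteoblasts through a receptor coupled to the stimulatory G protein, which raises cAMP and activates protein kinase A, and the kinase phosphorylates the transcription factor CREB at genes that need no new protein for their induction. The transcripts of these immediate-early genes are short-lived, many carrying AU-rich elements that speed their decay, so they appear and vanish quickly. Their products include transcription factors, phosphatases and kinase inhibitors that limit the signal, RNA-decay factors, and secreted proteins that act on neighbouring cells.

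One array stood apart. The median correlation of 60 min replicate b with the other arrays over the tested probe sets was 0.938. For the remaining 8 arrays it was 0.954 to 0.967. For some of the named genes and lists, values without 60 min replicate b are given beside the main ones. The 60 min arrays had brighter upper ends, with 99th percentiles of intensity from 3751 to 4485 against 3428 to 3728 at 30 min, a difference at the smallest p that an exact 2-sided permutation test of 3 arrays against 3 can give, 0.1. Of the osteoblast markers listed, 6 were measured. The collagen gene Col1a2 had intensities from 4868 to 6705 at the treated times, whereas Pth1r, the PTH receptor gene itself, averaged 34.5 at 30 min and 23.5 at 60 min, below the filter at both. The summed intensity of the 6 osteoblast markers was 13377 to 13681 at 30 min and 14481 to 17115 at 60 min. For the 5 bright enough to test, the median log2 fold change of 60 over 30 min was 0.20 as deposited. After quantile normalization it was 0.03. Col1a1 averaged 4715 at 30 min and 5518 at 60 min, Col1a2 5188 and 6058, Sparc 3268 and 3746 and Alpl 254 and 295. Ibsp, at 110 and 66.6, was lower at 60 min, as Pth1r was. All 3 measured chondrocyte and all 5 endothelial markers lay below the 40th percentile of intensity on every array, as did 2 of 7 haematopoietic and osteoclast, 2 of 4 adipocyte and 1 of 6 skeletal muscle markers. The haematopoietic and osteoclast markers summed to 1892 to 2048 at 30 min and 1808 to 2264 at 60 min. Of these Cd14 averaged 1050 at 30 min and 1188 at 60 min, Ctsk 682 and 547 and Cd68 129 and 117, whereas the leukocyte gene Ptprc averaged 3.60 and 7.30 and Itgam 7.80 and 4.77. Acp5 averaged 32.4 and 50.7 and Csf1r 46.0 and 57.9. The adipocyte markers summed to 156 to 186 and 157 to 184, and the muscle markers to 346 to 383 and 293 to 420, with Myod1 at 140 and 120. The part of such cells in the results was not tested. In bulk RNA, fewer cells of a type and less RNA per cell cannot be told apart.

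Between 30 and 60 min, 2 transcripts fell past the threshold and none rose past it. Both had also passed it as higher at 30 than at 0 min. They were Fos, which encodes one partner of the AP-1 dimers that drive transcription, and Dusp1, which encodes a phosphatase that switches off MAP kinases. Genes past the threshold as higher at 30 than at 0 min are called induced below. The part of the hormone itself in their rise was not tested. The threshold was an adjusted p under 0.05 in limma's moderated test on log2(intensity + 11.8), with Benjamini-Hochberg adjustment over all 7884 tested probe sets, and it was passed by 0.0254% of them, 2 lower and 0 higher at 60 min. At an unadjusted p under 0.05, 389 were lower (4.93%) and 326 higher (4.13%), 715 in all (9.07%). Scaling each array to its 75th percentile turned that split to 280 lower and 469 higher. The 3 arrays of one time lay wholly apart from those of the other for 911 probe sets (11.6%), 512 lower (6.49%) and 399 higher (5.06%) at 60 min. The median log2 fold change over all tested probe sets was -0.05, with quartiles at -0.23 and 0.11. Against 0 min the same fit called 38 probe sets higher (0.482%) and 36 lower (0.457%) at 30 min, and 343 higher (4.35%) and 688 lower (8.73%) at 60 min. These 3 comparisons share arrays. Fewer calls against 30 min therefore do not show that the other transcripts stood still, and the median standard error (SE) of a difference, 0.18 on the log2 scale, limited what could be called. With array weights estimated by limma, in which 60 min replicate b had the lowest weight, 833 probe sets passed, Fos and Dusp1 among them, 350 higher and 483 lower.

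**Figure D1:**
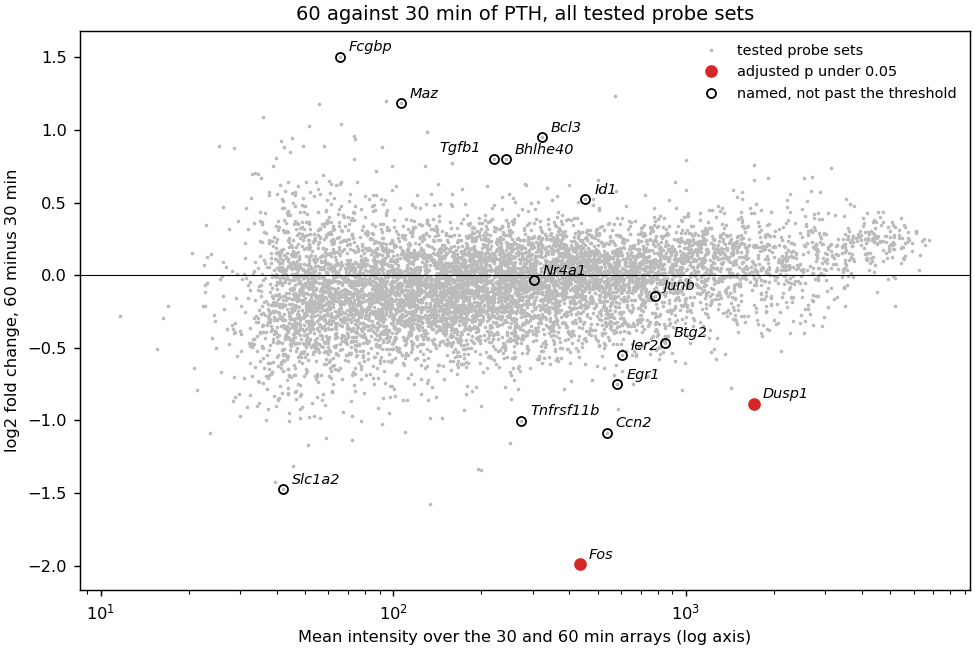
Log2 fold change of 60 minus 30 min against the mean intensity over the 6 arrays of both times (log axis) for 7884 tested probe sets, each a grey point. The 2 red points, Fos at -1.99 and Dusp1 at -0.88, passed the adjusted p threshold, and open circles are named genes that did not, from Slc1a2 at -1.48 to Fcgbp at 1.50.

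Fos showed the largest difference between the treated times. Its intensity was 618, 815 and 662 on the 30 min arrays and 220, 160 and 128 on the 60 min arrays, against 27.5, 30.8 and 34.4 before PTH. Every 60 min array lay far below every 30 min array and far above every 0 min array. On the log2(intensity + 11.8) scale, to which all fold changes refer, Fos fell 3.98-fold between the treated times, from 698 ± 104 to 169 ± 46.5 (SD, n = 3 arrays each). The log2 fold change was -1.99 (SE 0.19, 95% interval -2.41 to -1.57, limma adjusted p = 0.00475). Of the increase in mean intensity reached at 30 min, 20.7% was present at 60 min, and 28.3% on the highest of the 60 min arrays. The call was lost without 30 min replicate b, at a limma adjusted p of 0.0523, and in no other alternative. A second probe set of Fos was dim on all arrays, between 4.40 and 27.9, and was not tested.

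Dusp1 was bright before PTH and moved with little spread. Its intensity was 2189, 2097 and 2377 at 30 min and 1273, 1264 and 1062 at 60 min, against 614, 623 and 632 at 0 min. The 3 times did not overlap, and 60 min lay between the other two. Dusp1 fell 1.85-fold between the treated times, from 2221 ± 143 to 1200 ± 119 (SD, n = 3), and the log2 fold change was -0.88 (SE 0.10, 95% interval -1.12 to -0.65, limma adjusted p = 0.018). At 60 min 36.1% of its increase at 30 min was present, with 27.5% on the lowest array and 40.7% on the highest. Over the alternatives its value ran from -1.06 to -0.80, but its call was lost in part of them. It was lost, with a limma adjusted p of 0.235, when the fit was restricted to the 6 arrays of 30 and 60 min, and on leaving out any array but 60 min replicate b, 8 of 9 such fits, where it ranged up to 0.217; leaving out that replicate gave 0.00933. It was also lost with the replicate letter as a block (0.0723) and without the variance trend (0.0795).

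The promoters of the 2 called genes are shown beside those of Btg2, an induced gene with a value in the same direction, and Nr4a1, an induced gene with nearly equal intensities at both times; the latter pair was chosen after the values were seen. Each sequence holds the 250 bases before the start site on the gene's own strand, 5′ to 3′, from RefSeq on GRCm38.p6, and capitals mark the motifs found on either strand. They were the cAMP response element (CRE) TGACGTCA, its shorter core TGACG, the AP-1 site TGANTCA, the Egr site GCGGGGGCG, the CArG box, the E-box CACGTG, the GC box GGGCGG and the TATA box TATAAA. Fos lies at chr12:85473640-85473889 on the plus strand, Dusp1 at chr17:26508473-26508722 on the minus strand, Btg2 at chr1:134079156-134079405 on the minus strand and Nr4a1 at chr15:101266596-101266845 on the plus strand.
Fos promoter: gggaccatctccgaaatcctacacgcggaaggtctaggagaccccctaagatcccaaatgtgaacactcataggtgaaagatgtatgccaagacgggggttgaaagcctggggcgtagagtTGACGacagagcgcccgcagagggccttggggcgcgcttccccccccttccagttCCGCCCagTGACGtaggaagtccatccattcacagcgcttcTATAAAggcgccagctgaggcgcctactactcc
Dusp1 promoter: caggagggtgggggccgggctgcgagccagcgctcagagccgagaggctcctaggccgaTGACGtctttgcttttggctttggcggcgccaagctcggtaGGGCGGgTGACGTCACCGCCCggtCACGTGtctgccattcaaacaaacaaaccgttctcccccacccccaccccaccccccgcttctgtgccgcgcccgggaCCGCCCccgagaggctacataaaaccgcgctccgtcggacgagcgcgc
Btg2 promoter: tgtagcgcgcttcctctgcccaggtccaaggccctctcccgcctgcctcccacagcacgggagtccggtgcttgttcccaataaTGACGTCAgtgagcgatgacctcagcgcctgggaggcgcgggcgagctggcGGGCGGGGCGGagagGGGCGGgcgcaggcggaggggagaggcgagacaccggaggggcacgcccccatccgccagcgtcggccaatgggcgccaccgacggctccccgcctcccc
Nr4a1 promoter: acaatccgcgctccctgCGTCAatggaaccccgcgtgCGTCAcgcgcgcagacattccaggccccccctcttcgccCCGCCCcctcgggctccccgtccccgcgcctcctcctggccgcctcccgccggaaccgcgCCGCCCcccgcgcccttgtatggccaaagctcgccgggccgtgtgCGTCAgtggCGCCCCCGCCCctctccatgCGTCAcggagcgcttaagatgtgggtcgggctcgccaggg
A whole CRE was found in Dusp1, 143 to 136 bases before the start, and in Btg2, 166 to 159 bases before it, and each contains TGACG on both strands. Fos held 2 copies of TGACG, at 129 to 125 and 66 to 62 bases before the start, and a TATA box at 33 to 28. Nr4a1 held 4 copies, all on the opposite strand and so printed as CGTCA, and an Egr site at 60 to 52 bases that overlaps a GC box. The GC boxes of Btg2 at 115 to 110 and 110 to 105 share a base. Dusp1 also held a separate TGACG at 191 to 187 and an E-box at 126 to 121. Of 32851 mouse promoters of this length, 1.55% held a CRE, 17.8% TGACG, 2.57% an Egr site, 6.02% the E-box, 32.7% a GC box and 12.4% the TATA box; 6.75% held the AP-1 site and 1.47% the CArG box, neither of which was found in these 4 windows. A match is a description of the letters and not of binding.

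Beyond the 2 calls, a panel of genes known to respond to PTH or cAMP was read at 60 against 30 min. The panel also held genes that were not induced here, among them Fosb, Csf1 and Mmp13, and its counts cover all of them. Of 54 panel genes, 3 (Nr4a3, Ier5 and Lif) had no probe set and 3 (Crem, Il6 and Tnfsf11) were too dim to test. Among the 48 tested, 2 were lower past the threshold and 0 higher, beside 0.0254% of all tested probe sets. The 95% interval of the log2 fold change lay below 0 for 11 and above 0 for 6, and spanned 0 for 31; over all tested probe sets 4.93% were lower and 4.13% higher at the matching unadjusted p under 0.05. The arrays did not overlap for 12 that were lower and 6 that were higher, beside 6.49% and 5.06% of all tested probe sets. The panel median was -0.09, beside -0.05 over all tested probe sets. The panel was drawn up with earlier results of these data known, so its counts are descriptive.

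**Figure D2:**
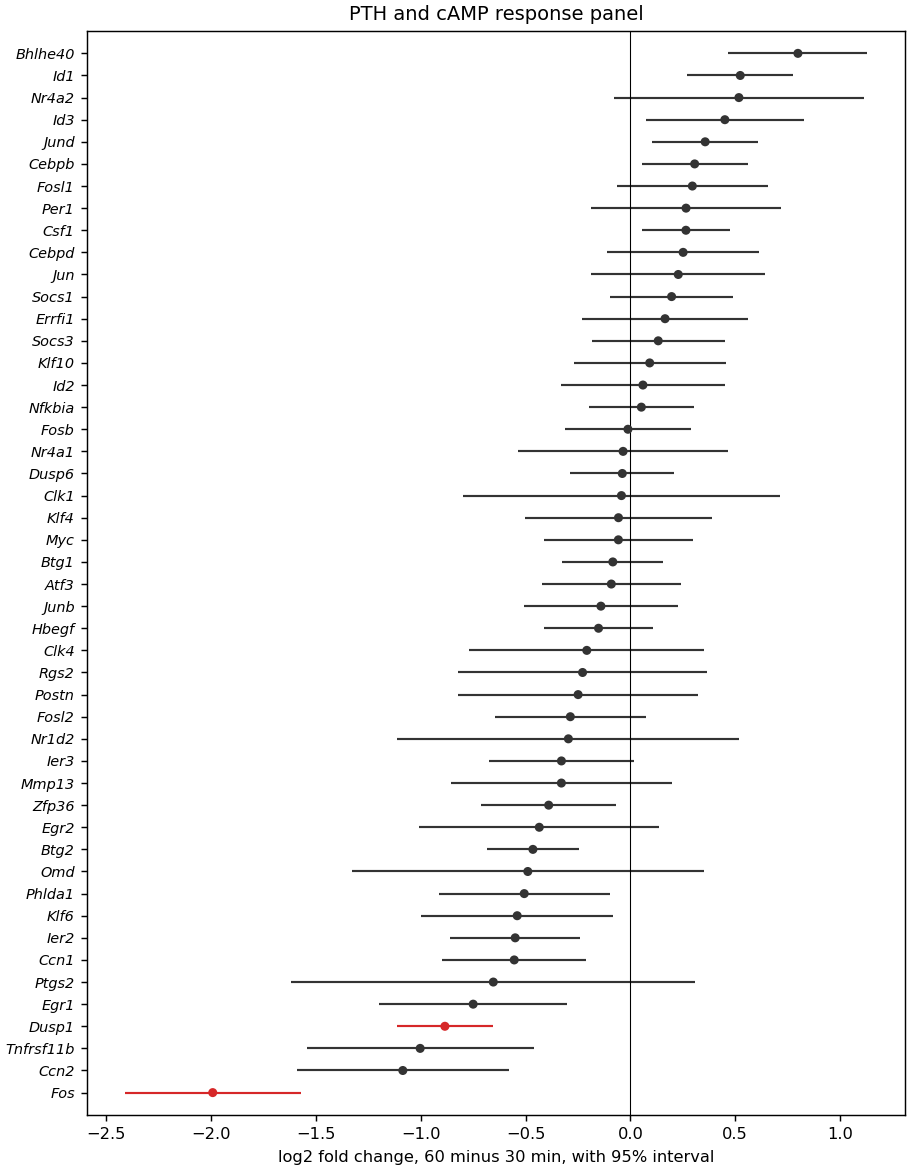
Log2 fold change of 60 minus 30 min with its 95% interval for the 48 tested panel genes, ordered by value, with the 2 genes past the adjusted p threshold in red. Values run from -1.99 for Fos to 0.80 for Bhlhe40, and 31 of the 48 intervals span 0.

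Among the transcription factors induced with Fos, Egr1 and Ier2 had lower values at 60 min without passing the threshold. Egr1, a zinc finger factor, had intensities of 640, 834 and 707 at 30 min and 583, 309 and 425 at 60 min, from 103, 88.0 and 105 at the start. The groups did not overlap, but 60 min replicate a came close to the 30 min range and replicate b lay lowest. The log2 fold change was -0.75 (95% interval -1.20 to -0.30, limma adjusted p = 0.499), and -0.53 without 60 min replicate b. Ier2, a nuclear protein of the immediate-early response, stood at 608, 831 and 723 at 30 min and at 509, 474 and 472 at 60 min. All 60 min arrays were lower, with a log2 fold change of -0.55 (95% interval -0.86 to -0.24, limma adjusted p = 0.418). Of the increase at 30 min, 54.1% was present for Egr1 and 58.0% for Ier2. The Egr1 relative Egr2 had a log2 fold change of -0.43, with an interval that spanned 0, from -1.01 to 0.14. It was at -0.28 without 60 min replicate b, and its rise from 0 to 30 min was not called (limma adjusted p = 0.0696). A second probe set of Egr1 was dim on all arrays and not tested. Klf6, a Krüppel-like factor, had no called change from the start, with log2 fold changes of -0.02 at 30 min and -0.56 at 60 min (limma adjusted p = 0.966 and 0.0933). Between the treated times its value was -0.54, and -0.25 without 60 min replicate b.

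The matricellular genes Ccn1 and Ccn2, which encode secreted proteins that bind integrins and growth factors, also had lower values. Ccn2 had intensities of 659, 817 and 693 at 30 min and 414, 210 and 422 at 60 min, from 140, 124 and 146 at the start. The times did not overlap, and 60 min replicate b was the dimmest of its group by a wide margin. Its log2 fold change was -1.09 (SE 0.23, 95% interval -1.59 to -0.58, limma adjusted p = 0.332), and -0.77 without that array. Ccn1 stood at 707, 871 and 837 at 30 min and at 531, 453 and 663 at 60 min, a log2 fold change of -0.55 (limma adjusted p = 0.526). Its value was -0.43 without 60 min replicate b. At 60 min 36.2% of the increase of Ccn2 and 51.4% of that of Ccn1 was present. Hbegf, an EGF receptor ligand shed from the cell surface, had 76.6% of its increase present, with a log2 fold change of -0.15 and an interval from -0.41 to 0.11.

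Of the genes that destabilise RNA or limit signals, Btg2, Zfp36, Phlda1 and Ier3 had lower values without passing the threshold. Btg2, an antiproliferative protein that recruits deadenylases to mRNA, had intensities of 1013, 978 and 966 at 30 min and 679, 685 and 771 at 60 min, from 544, 552 and 517 at the start. Its spread was small and the 3 times were separate. The log2 fold change was -0.47 (SE 0.10, 95% interval -0.68 to -0.25, limma adjusted p = 0.332), and 38.9% of the increase at 30 min was present at 60 min. Zfp36, which encodes tristetraprolin, a protein that binds AU-rich elements, stood at 274, 397 and 386 at 30 min and at 257, 264 and 267 at 60 min, close to 216, 224 and 239 at 0 min. Its value was -0.39 (95% interval -0.71 to -0.07, limma adjusted p = 0.54). The rise of Zfp36 from 0 to 30 min was not called (limma adjusted p = 0.0826). Phlda1, a pleckstrin homology domain protein, was at -0.51 (limma adjusted p = 0.54), with 353, 312 and 346 at 30 min and 290, 169 and 257 at 60 min, and at -0.29 without 60 min replicate b. Ier3, an immediate-early regulator of cell survival, was at -0.33 with an interval from -0.68 to 0.02, and 68.2% of its increase was present.

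**Figure D3:**
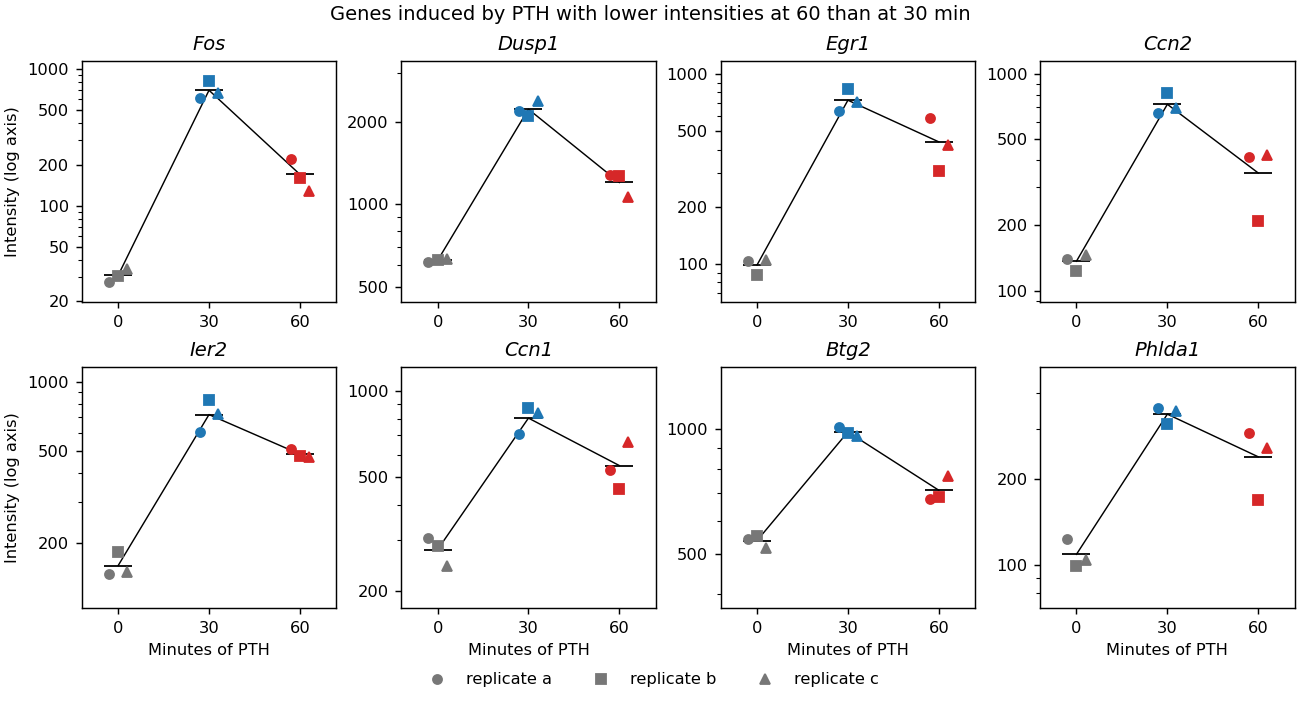
Intensity (log axis, one scale per gene) at 0, 30 and 60 min of PTH for Fos, Dusp1, Egr1, Ccn2, Ier2, Ccn1, Btg2 and Phlda1, with one marker per array, its shape giving the replicate letter, and bars joined by lines for the mean of 3 arrays. In all 8 genes the 60 min arrays lie below the 30 min arrays and above the 0 min arrays, and in Egr1, Ccn2, Ccn1 and Phlda1 replicate b is the lowest at 60 min.

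Other induced genes had nearly the same intensities at both treated times. Nr4a1, an orphan nuclear receptor induced through CREB, stood at 269, 359 and 291 at 30 min and at 345, 256 and 295 at 60 min, from 65.6, 29.2 and 37.2 at the start. The 2 treated groups overlapped throughout. Its log2 fold change was -0.03 with a 95% interval from -0.54 to 0.47, so smaller changes either way could not be told from none, and 97.1% of the increase at 30 min was present at 60 min. The sign turned to positive under some alternatives, whose values ran from -0.14 to 0.11. Dusp6, a cytoplasmic phosphatase of ERK, was measured more closely, at 503, 518 and 530 at 30 min and 552, 477 and 484 at 60 min. Its log2 fold change was -0.04 with an interval from -0.29 to 0.21, and 95.3% of its increase was present. The difference between Dusp1 and Dusp6 was not itself tested. Junb, another AP-1 subunit, stood at 688, 1032 and 755 at 30 min and at 725, 841 and 654 at 60 min. The groups overlapped, with a log2 fold change of -0.14 (95% interval -0.51 to 0.23), and its second probe set was at 0.03. The signs for Dusp6 and Junb also turned under some alternatives, which reached 0.02 and 0.03. Nr4a1 was at 0.07 and Junb at -0.24 without 60 min replicate b.

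For 2 feedback inhibitors, Errfi1 and Socs1, the values were above 0 with intervals that spanned it, in contrast to Dusp1 and Phlda1, whose intervals lay below 0; the difference between these genes was not tested. Errfi1, an inhibitor of the EGF receptor kinase, stood at 618, 571 and 458 at 30 min and at 817, 507 and 553 at 60 min, from 219, 204 and 201. The 60 min arrays straddled the 30 min ones, with log2 fold changes of 0.17 (95% interval -0.23 to 0.56) and, in its second probe set, 0.27. The former turned to -0.04 in the lowest of the alternatives, and without 60 min replicate b they were 0.30 and 0.42. Socs1, an inhibitor of cytokine receptor signalling, was at 0.20 with an interval from -0.10 to 0.49, and at 0.13 without that array. Fosl1, an AP-1 subunit that is itself a target of AP-1, stood at 337, 317 and 359 at 30 min and at 471, 337 and 455 at 60 min, from 150, 138 and 193. Replicates a and c exceeded the 30 min range and replicate b lay within it, for a log2 fold change of 0.30 (95% interval -0.06 to 0.65, limma adjusted p = 0.579), and of 0.44 without replicate b.

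A pair of induced transcripts, Bhlhe40 and Id1, was higher again at 60 than at 30 min on all arrays, without passing the threshold. Bhlhe40, a basic helix-loop-helix repressor and clock component, stood at 160, 186 and 173 at 30 min and at 359, 314 and 263 at 60 min, from 79.8, 87.9 and 102. The 3 times formed 3 separate steps. The log2 fold change between the treated times was 0.80 (SE 0.15, 95% interval 0.47 to 1.13, limma adjusted p = 0.28), and the increase over the start at 60 min was 267% of that at 30 min. Id1, which encodes an inhibitor of differentiation that binds helix-loop-helix factors and is a target of BMP signalling, stood at 398, 378 and 336 at 30 min and at 523, 536 and 551 at 60 min, from 243, 217 and 250. Again no array of one time overlapped another time. Its log2 fold change was 0.52 (SE 0.11, 95% interval 0.27 to 0.78, limma adjusted p = 0.332), with 224% of the increase at 30 min. Its relative Id3 was at 0.45 (limma adjusted p = 0.54), with overlapping arrays, and at 0.34 without 60 min replicate b.

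A further set of transcription factors had higher values at 60 min without a called change at 30 min. Cebpb, a leucine zipper factor of osteoblast and adipocyte genes, stood at 1544, 1940 and 1919 at 30 min and at 2175, 2414 and 2078 at 60 min, a log2 fold change of 0.31 (limma adjusted p = 0.54). Jund, the AP-1 subunit expressed in resting cells, stood at 3704, 3851 and 3145 at 30 min and at 4045, 5286 and 4414 at 60 min, a log2 fold change of 0.36 (limma adjusted p = 0.529). In both the 60 min arrays were all above the 30 min arrays. Without 60 min replicate b the value of Cebpb was 0.246 and that of Jund 0.249. Over all the alternatives the value of Cebpb ran from 0.16 to 0.36 and that of Jund from 0.11 to 0.44. Snai1, a zinc finger repressor of epithelial genes, averaged 319 at 0 min, 386 at 30 min and 615 at 60 min, and its value between the treated times was 0.66 (SE 0.13, 95% interval 0.36 to 0.95, limma adjusted p = 0.332). Nab2, a corepressor that binds Egr proteins, averaged 666, 586 and 867, with a value of 0.55 (limma adjusted p = 0.335). The arrays of Snai1 and Nab2 did not overlap between the treated times, and these 2 genes were picked after their values were seen.

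**Figure D4:**
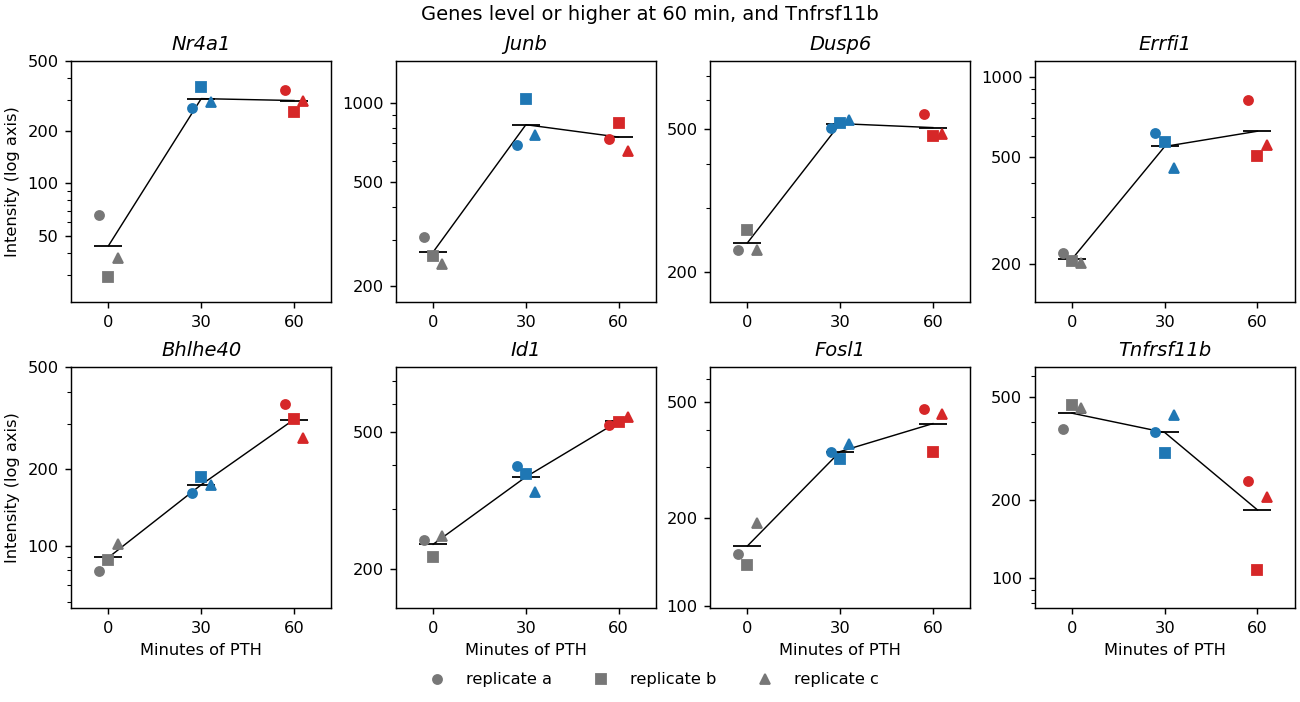
Intensity (log axis, one scale per gene) at 0, 30 and 60 min of PTH for 7 induced genes that were level or higher at 60 min and for Tnfrsf11b, with one marker per array, its shape giving the replicate letter, and bars joined by lines for the mean of 3 arrays. Nr4a1, Junb, Dusp6, Errfi1 and Fosl1 overlap between 30 and 60 min, Bhlhe40 and Id1 are higher on every 60 min array, and Tnfrsf11b is lower on every 60 min array.

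Among genes through which osteoblasts control bone resorption, Tnfrsf11b, which encodes osteoprotegerin, the decoy receptor for RANKL, had the lowest value. It stood at 364, 303 and 425 at 30 min and at 237, 107 and 204 at 60 min, from 376, 466 and 453. The 60 min arrays lay below all others, and the 30 min arrays overlapped those of the start. Its log2 fold change between the treated times was -1.003 (SE 0.25, 95% interval -1.54 to -0.46, limma adjusted p = 0.38), and -0.68 without 60 min replicate b. Csf1, the growth factor of osteoclast precursors, stood at 1841, 2079 and 1841 at 30 min and at 2235, 2224 and 2466 at 60 min. Its groups did not overlap, with a log2 fold change of 0.26 (95% interval 0.06 to 0.47, limma adjusted p = 0.529). The RANKL gene Tnfsf11 was dim on all arrays, between 4.70 and 26.7. Mmp13, a collagenase of bone, was at -0.33 and Ptgs2, which encodes an inducible prostaglandin synthase, at -0.65, both with intervals that spanned 0. Both values rested on 60 min replicate b. Mmp13 stood at 3078, 1344 and 2287 at 60 min, and without that array its value was -0.0041. Ptgs2 stood at 84.5, 13.6 and 58.2, and without that array its value was -0.09.

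Panel genes with lower intensities at 30 min than at the start had no called difference between the treated times. Clk1 and Clk4 were called lower at 30 than at 0 min (limma adjusted p = 0.0254 and 0.00678). Omd, Postn and Nr1d2 were not (limma adjusted p = 0.101, 0.101 and 0.182). The splicing-factor kinase genes Clk1 and Clk4 were at -0.04 (95% interval -0.80 to 0.71) and -0.21 (-0.77 to 0.35), and a second probe set of Clk4 was at 0.10. The first values of Clk1 and Clk4 were 0.26 and 0.10 without 60 min replicate b. Clk1 stood at 467, 179 and 234 at 30 min and at 305, 167 and 350 at 60 min. The spread among arrays of one time exceeded any difference between the times. The matrix genes Omd and Postn were at -0.49 and -0.25 and the nuclear receptor gene Nr1d2, a clock repressor, at -0.30, all with intervals that spanned 0. These too moved with single arrays. Without 60 min replicate b Omd was at -0.32, Postn at -0.0088 and Nr1d2, with its sign turned, at 0.23. Omd was at -1.03 without 30 min replicate b, its dimmest array at that time, and at -0.07 without 30 min replicate a, its brightest, and Postn was at 0.02 without 30 min replicate a.

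Outside the panel, the largest differences without overlap and with an unadjusted p under 0.01 were given as values, not calls. Slc1a2, a glutamate transporter gene, stood at 58.4, 87.3 and 56.6 at 30 min and at 16.9, 17.6 and 14.4 at 60 min, from 50.5, 60.1 and 48.1. Its 60 min arrays were near the floor of the scale, where the added constant shrinks a fold change. The log2 fold change was -1.48 (SE 0.23, limma adjusted p = 0.171), and the gene passed at 0.0242 when the variance prior had no trend with signal, in which fit Dusp1 did not pass. Isoc1, a gene of an isochorismatase domain protein, stood at 415, 347 and 283 at 30 min and at 109, 144 and 207 at 60 min, from 141, 134 and 173, so that the 60 min arrays overlapped those of the start. It had risen at 30 min (log2 fold change 1.15, limma adjusted p = 0.0424) and its value between the treated times was -1.15 (limma adjusted p = 0.28). Runx1t1, Gstm5, Timd2, Hoxb6 and Ccdc93 had values from -1.42 to -1.09. Other probe sets of Gstm5, however, were at 0.06 and 0.09 and of Ccdc93 at -0.17. On every 60 min array Runx1t1, Timd2, Hoxb6 and Ccdc93 were dimmer than the 44.7 of the filter. Timd2 and Hoxb6 passed the filter mainly through their 30 min arrays, so their falls are not independent of it.

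In the other direction Maz, a zinc finger factor, stood at 48.8, 83.0 and 51.9 at 30 min and at 167, 129 and 158 at 60 min, from 130, 106 and 65.2. Its 30 min arrays were low and its 60 min arrays overlapped the start, and its value was 1.18 (SE 0.25, limma adjusted p = 0.332). Bcl3, a nuclear IκB protein, stood at 170, 313 and 178 at 30 min and at 399, 485 and 384 at 60 min, from 304, 232 and 285. The 60 min arrays exceeded all others and 30 min replicate b stood apart from its group, with a value of 0.95 (limma adjusted p = 0.335). Tgfb1, the growth factor stored in bone matrix, stood at 138, 150 and 182 at 30 min and at 249, 241 and 362 at 60 min, from 287, 195 and 230, with a value of 0.80 (limma adjusted p = 0.38). Fcgbp was at 1.50 from a dim probe set with 6.20 on one 30 min array, and its second probe set was at 0.17. Proc, Sf3a2, Pmf1, Fth1 and Rpl37a had values from 0.67 to 0.95, with second probe sets of Proc at 0.19, Sf3a2 at 0.43 and Fth1 at 0.24.

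Gene lists for the pathways of this response were read by the same fit, each gene represented by its brightest probe set. Over all tested probe sets 0.0254% passed the threshold. Among 23 immediate-early transcription factors 1 was lower, Fos, and 0 higher, with a median of -0.06. At an unadjusted p under 0.05, reached by 4.93% of all tested probe sets in the lower and 4.13% in the higher direction, Egr1, Ier2 and Klf6 were also lower and Bhlhe40, Nab2 and Jund higher. Among 12 cAMP and CREB targets 2 were lower, Fos and Dusp1, and 0 higher, with a median of -0.01. After quantile normalization these medians were 0.03 and 0.05. Among 16 feedback regulators 1 was lower, Dusp1, with Phlda1, Rgs16 and Spred2 lower and Smad7 higher at an unadjusted p under 0.05 and a median of -0.05. Among 16 PTH targets 1 was lower, Fos, and Tnfrsf11b was lower and Csf1, Cebpb and Vdr were higher at an unadjusted p under 0.05, with a median of -0.06. No member of any other list passed. In the cAMP and protein kinase A machinery, 16 genes with a median of -0.08, the regulatory subunit gene Prkar2a stood at -0.75, Creb1 at -0.52 and Gnas, which encodes the stimulatory G protein subunit, at 0.38, all with limma adjusted p from 0.394 to 0.54. Without 60 min replicate b Prkar2a was at -0.64, Creb1 at -0.49 and Gnas at 0.28. Over all the alternatives Gnas ran from 0.15 to 0.47. The medians over all 5936 genes and over all probe sets were -0.04 and -0.05.

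Differentiation lists had 0 members past the threshold. In the 13 BMP and TGF-beta response genes the median was 0.09, and Id1, Tgfbi, Id3, Smad7 and Dlx5 were higher and Ccn2 lower at an unadjusted p under 0.05. Without 60 min replicate b that was 2 higher and 1 lower. Over all tested probe sets 4.13% were higher and 4.93% lower at that p, and 3.31% and 5.57% without that array. In the 18 C/EBP, Id and bone transcription factors the median was 0.08, with Id1, Id3, Dlx2, Cebpb and Dlx5 higher and Sox4 lower, against 1 and 1 without that array. Dlx5, a homeobox factor of osteoblasts, stood at 334, 393 and 396 at 30 min and at 446, 479 and 455 at 60 min, a log2 fold change of 0.29 (limma adjusted p = 0.54). The 19 bone matrix genes had a median of 0.20, and of 0.01 after quantile normalization. Of these, 10 had values above 0 and 9 below. At an unadjusted p under 0.05 the collagen genes Col1a2, Col3a1 and Col5a1 stood higher (0.22, 0.26 and 0.33), as did the proteoglycan gene Bgn (0.27), and Ibsp and Lum, encoding bone sialoprotein and lumican, lower (-0.71 and -0.86), all with limma adjusted p of 0.526 or more. The value of Col1a2 ran from 0.03 to 0.28 over all the alternatives, and its second probe set was at -0.35. The proteoglycan genes Omd, Ogn and Dcn were at -0.49, -0.14 and -0.08. Without 60 min replicate b Col1a2 was at 0.15, Col3a1 at 0.23, Col5a1 at 0.38 and Bgn at 0.16. Ibsp was then at -0.42, Lum at -0.77, Ogn at -0.06 and Dcn, with its sign turned, at 0.17. Among 19 mRNA decay factors, with a median of -0.05, only Btg2 and Zfp36 reached an unadjusted p under 0.05. The 17 actin cytoskeleton and SRF target genes had a median of -0.11, and among them Vcl, which encodes vinculin, stood at 2371, 2404 and 2732 at 30 min and 1860, 1581 and 1782 at 60 min, a log2 fold change of -0.52 (limma adjusted p = 0.28).

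Lists of genes that act in every cell had medians away from 0 that came nearer to it without 60 min replicate b. They were -0.31 for 19 zinc finger genes of the Zfp series, -0.26 for 18 heat shock genes, -0.25 for 21 chromatin genes, -0.24 for 27 splicing genes and for 22 ubiquitin and COP9 signalosome genes, and 0.27 for 15 ribosomal protein genes, with 0 members past the threshold in each. Without 60 min replicate b they were -0.19, -0.03, -0.07, 0.00, -0.09 and 0.14. After quantile normalization of all arrays they were, in the same order, -0.21, -0.25, -0.14, -0.20, -0.18 and 0.09. In the same arrays the upper end of the intensity scale differed between the times, as given above, and its part in these medians was not tested. The medians of the lists for Wnt (15 genes), NF-kappaB (15), clock (16), cell cycle (24), secreted factors (17) and matrix proteases (13) lay between -0.14 and 0.07.

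**Figure D5:**
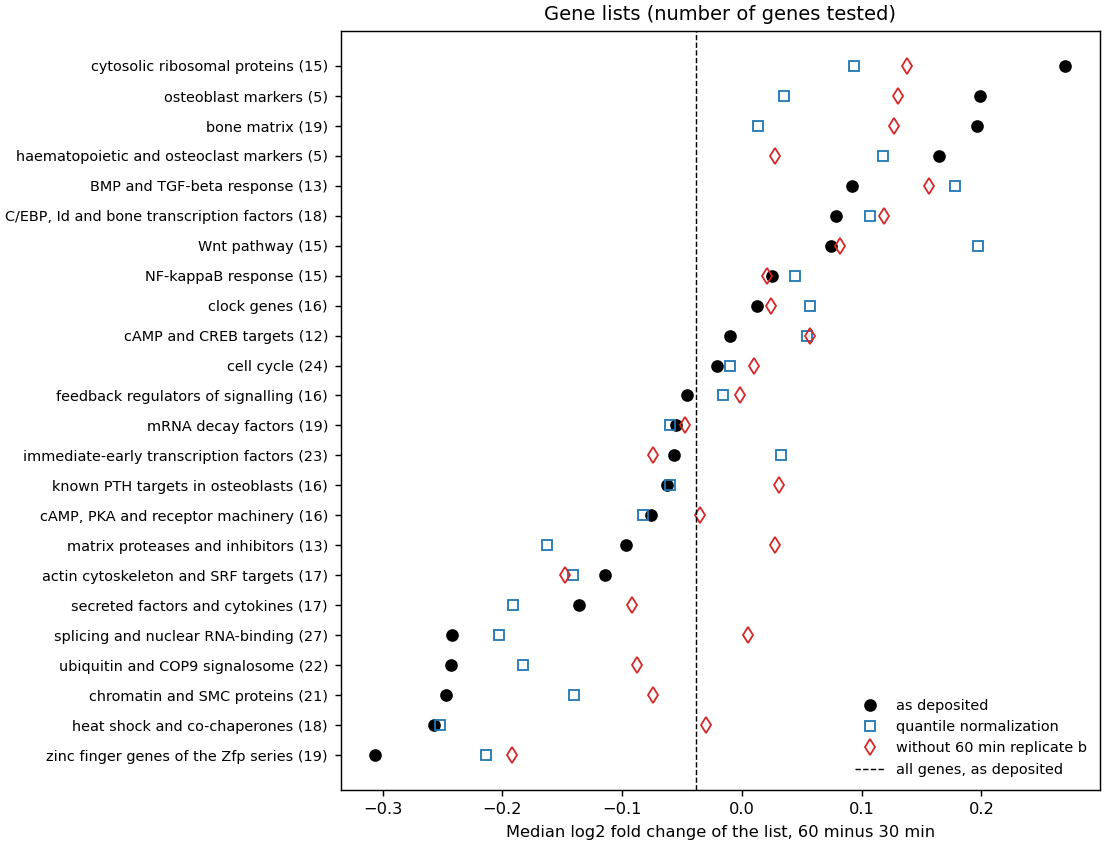
Median log2 fold change of 60 minus 30 min for each gene list with at least 5 tested genes (number in brackets), as deposited (black circles), after quantile normalization (blue squares) and without 60 min replicate b (red diamonds); the dashed line is the median over all 5936 genes. Medians as deposited run from -0.31 for the Zfp series to 0.27 for the ribosomal proteins, and most of the outer ones lie nearer 0 without replicate b.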

How the data were processed

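Gene expression was measured on 1-colour arrays in 9 RNA samples. The authors deposited one linear intensity per probe set and array (0.1 to 8605). The summary method and software were not given in the sources used here. The mean without the 2% of probe sets at each end was 250.1 or 250.2 on every array, so the deposited intensities were used as scaled. Probe sets were named from the platform annotation (10833 with 1 symbol, 396 with several, 1193 with none), updated by Entrez identifier through the GRCm38.p6 gene table (10817 matched, 0 changed). The 66 control probe sets were left out.

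Values were taken as log2(intensity + 11.8), the constant being the 20th percentile, so changes of dim probe sets are understated. Testing required 3 of 9 arrays above the 40th percentile, 44.7. One limma fit (3.58.1, R 4.3.3, variance trend, 6 residual and 4.68 prior degrees of freedom) used all 9 arrays with a mean per time, and 60 minus 30 min was its contrast. A share of the increase present at 60 min is the 60 minus 0 min difference of mean intensities over that of 30 minus 0 min, so both terms share arrays. Levels are not compared between probe sets.

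Named genes were those past the threshold without overlap of arrays, filled to 10 each way with unadjusted p under 0.01, the panel, 1 to 3 members of each list, and the 10 largest rises against 0 min at each treated time, 85 genes in all. The panel, the 28 lists (526 names, 427 with a probe set) and the rule were chosen with earlier results of these data known. A gene is described by its brightest probe set, or by the one that met the rule. The labels do not say whether replicates came from separate cultures, so p-values rest on array-to-array spread, which could be technical, and 3 arrays per time limit the precision. The script was tested on simulated data. Alternatives were other constants, filters and scalings, 6 arrays, no trend, array weights, leaving out each array, and the replicate letter as a block. Figures used matplotlib 3.10.9 in Python 3.11.15.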

Additional observations from a re-analysis of the deposited data

Results flagged for a closer look

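Several control probe sets for actin and Gapdh, which were left out of the tests, were brighter at 60 than at 30 min. The probe set for the 3′ end of the actin transcript averaged 3632 ± 1098 at 60 min and 1690 ± 846 at 30 min (SD, n = 3), a ratio of 2.15, with arrays from 2682 to 4834 against 734 to 2344. The probe set for its middle had a ratio of 1.51 and that for its 5′ end one of 1.499, with arrays from 4708 to 5530 against 2429 to 4006. The brightest tested probe set of Actb, the beta-actin gene, had a log2 fold change of 0.04, and of -0.07 without 60 min replicate b. Why it differed from the control probe sets was not tested. The Gapdh probe sets had ratios of 1.22 at the 3′ end (4194 to 5576 against 3899 to 4093), 1.18 in the middle and 1.22 at the 5′ end, where the arrays overlapped. The exact 2-sided permutation p was 0.1 for both ends of actin and the 3′ end of Gapdh and 0.2 for the 5′ end of Gapdh; 0.1 is the smallest that 3 arrays against 3 can give. The 3′ to 5′ ratio was 0.563 to 0.874 at 60 min and 0.302 to 0.657 at 30 min for actin (exact permutation p = 0.2), and 0.719 to 0.783 and 0.666 to 0.818 for Gapdh (exact permutation p = 1).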

How the results depend on the processing

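The counts of 2 changed, 2 lower and 0 higher probe sets were the same under both other constants, no filter, a filter on the mean, quantile normalization, 75th percentile scaling and cyclic loess, with Fos and Dusp1 called in each. The count changed was 1 with the 6 arrays alone, 2 without the variance trend (Fos and Slc1a2) and 0 to 5 with 1 array left out, all lower, falling to 0 when 30 min replicate b was dropped and rising to 5 when 60 min replicate b was, also with quantile normalization added, an alternative chosen after seeing the data. Estimated array weights, from 0.195 for 60 min replicate b to 3.80 for 30 min replicate c, gave 833 changed, 350 higher and 483 lower, and 63 list members past the threshold; 34 of 86 named probe sets gained a call there, and the cause was not tested. With the replicate letter as a block the count was 1, Fos, and Dusp1 had an adjusted p of 0.0723. Deviations of same-letter arrays at 30 and 60 min correlated by 0.304 for a, 0.251 for b and 0.0224 for c. With the 60 min arrays of other letters the 30 min arrays correlated by -0.266 to 0.0523, -0.264 to -0.0763 and -0.0850 to 0.0490. The same-letter values of a and b thus lay above the other-letter ones, and that of c lay among them. Deviations were taken from the mean of each time, so a positive value for an array forces a negative one. The contrast is therefore partly built in and cannot decide a pairing. The labels do not state a pairing, and the main fit did not use the letters. No called value reversed; signs of values that were not called turned for 7 under quantile normalization, 5 under 75th percentile scaling, 7 under cyclic loess, 7 with array weights, 3 to 9 with 1 of the treated arrays left out (9 without 60 min replicate b) and 14 when quantile normalization was added to that.

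The median over all tested probe sets, -0.05 as deposited, was 0.0013 under quantile normalization, 0.0073 under 75th percentile scaling, -0.011 under cyclic loess, -0.010 with the filter on the mean, and 0.0086 under quantile normalization without 60 min replicate b.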

Other observations

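Without 60 min replicate b, 3 more genes passed the threshold in limma's test, all lower at 60 min, and they are named after their values were seen. Pdgfra, the receptor for platelet-derived growth factor that marks mesenchymal progenitors, stood at 1080, 1137 and 1062 at 30 min and at 655 and 547 on 60 min replicates a and c, with 1043 on replicate b. Its log2 fold change without that array was -0.86 (limma adjusted p = 0.0224). Hap1, which encodes huntingtin-associated protein, stood at 284, 235 and 244 at 30 min and at 89.1, 240 and 101 at 60 min. Aanat, the arylalkylamine acetyltransferase gene, stood at 172, 171 and 181 at 30 min and at 60.9, 162 and 54.9 at 60 min. On replicate b all 3 genes lay near their 30 min level, and on replicates a and c they lay below it. Without replicate b their values were -1.31 for Hap1 and -1.42 for Aanat, both with a limma adjusted p of 0.0079, and the same 5 genes passed when quantile normalization was added.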
